A study of Mus musculus with 8 samples.

Results

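Cycling radial-glia-like cells are the dividing cells of the dentate gyrus that still carried RNA of astroglial genes and little RNA of committed neuronal progenitors. They were chosen by detection of single genes in barcodes with more than 500 genes and less than 10% mitochondrial UMIs. A member had a UMI of at least 3 of 5 glial genes (Aldoc, Slc1a3, Slc1a2, Gja1, Ntsr2) and of at least 4 of 10 cell cycle genes (Mcm2, Mcm3, Mcm4, Mcm5, Mcm6, Mcm7, Pcna, Top2a, Cdk1, Ccnb1). It had at most 1 of 5 progenitor genes (Eomes, Neurog2, Neurod4, Mfng, Igfbpl1) and at most 1 of 7 genes of other lineages (Mog, Mag, Mobp, Cx3cr1, Cldn5, Pdgfra, Cspg4). In all, 195 of 26036 barcodes met the rule, out of 24376 that passed the filters on genes and mitochondrial UMIs. The cells came from mice that were heterozygous for a Nestin-GFP transgene, a Ki67-creERT2 allele and a tdTomato Cre reporter on a mixed C57BL/6J and CD1 background. Every animal received tamoxifen for 6 days and was culled on day 8. Each experiment pooled several mice of both sexes, whose GFP+ cells were sorted with and without tdTomato. There was 1 experiment at 1 month of age and 3 at 6–8 months (6 months in the labels), all with Version 3 chemistry, and 3 at 2 months with Version 2, so that age and chemistry cannot be told apart at 2 months. GFP depends on the Nestin promoter of the transgene and tdTomato on transcription of creERT2 from the Ki67 locus during the treatment.

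Radial-glia-like neural stem cells line the border of the granule cell layer and share many genes with astrocytes, while most of them are quiescent at any time. Notch signalling through Hes genes and BMP signalling through Id genes hold them in quiescence. Daughter cells lose the astroglial genes, switch on Eomes and Neurog2 as intermediate progenitors, and go on to Neurod1, Prox1 and Dcx as neuroblasts. MCM proteins form the core of the replicative helicase, and Top2a, Cdk1 and cyclin B1 act in chromosome condensation and mitotic entry.

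Members were compared with 2 other groups of the same libraries. The 966 cycling progenitors had at least 4 of the 10 cell cycle genes, at least 2 of the 5 progenitor genes and at most 1 gene of other lineages. The 1092 non-cycling radial-glia-like cells met the glial, progenitor and other-lineage limits of the members, had none of the 10 cell cycle genes, at least 2 of 6 stem cell genes (among them 1500015O10Rik, Riiad1, Hopx, Thbs4 and Lpar1) and at most 1 of 5 astrocyte genes (S100b, Slc7a10, Chrdl1, Grm3, Aldh1a1). The experiments held 69 members at 1 month, 29, 9 and 13 in the first, the second and the third experiment at 2 months, and 5, 34 and 36 in the 3 experiments at 6–8 months. The first 2-month experiment came as 2 libraries, with 9 members in the one labelled GFP+tdT+ and GFP-tdT- and 20 in the one labelled GFP+tdT-. The 8 libraries held 4861883 to 43826338 UMIs. Members had a median of 9907 UMIs (range 1662 to 27423), close to the 9856 of cycling progenitors and above the 3747 of non-cycling cells. Version 2 experiments were shallower, with medians of 6795, 3333 and 4813 UMIs per member. Libraries shared 119 barcodes, and 0 members had a barcode that occurred in another library.

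The genes of the rule describe the members and were not tested. Levels are given as CPM, the UMIs of a gene among 1000000 UMIs summed over the cells of one group in one experiment. Slc1a3 (ENSMUSG00000005360, chr15:8634124-8710764, GRCm38), the glial glutamate transporter GLAST, ranged over the 7 experiments from 919 to 1422 CPM (median 1207) in members. The range was 389.9 to 499.9 CPM (median 472) in progenitors and 3420.0 to 4978 CPM (median 4322) in non-cycling cells, so that the 3 groups did not overlap. Aldoc (ENSMUSG00000017390, chr11:78322968-78327781), the aldolase isoform of astroglia, ranged from 66.7 to 459 CPM (median 277) in members, from 32.2 to 108 CPM (median 44.5) in progenitors and from 3774 to 4743 CPM (median 4305) in non-cycling cells. The medians of members thus lay between those of both groups, nearer in CPM to progenitors for both genes. The Aldoc ranges of members and progenitors overlapped. Mcm6 (ENSMUSG00000026355, chr1:128331590-128359664), a subunit of the MCM helicase, ranged from 208 to 341 CPM (median 272) in members and from 272 to 415 CPM (median 355) in progenitors. Top2a (ENSMUSG00000020914, chr11:98992943-99024189), topoisomerase II alpha, ranged from 136 to 485 CPM (median 293) in members and from 275 to 716 CPM (median 350.2) in progenitors. Both were at 0 in non-cycling cells by the rule. Eomes, which marks intermediate progenitors, reached at most 45.3 CPM in members against at least 220.5 CPM in progenitors.

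**Figure D1:**
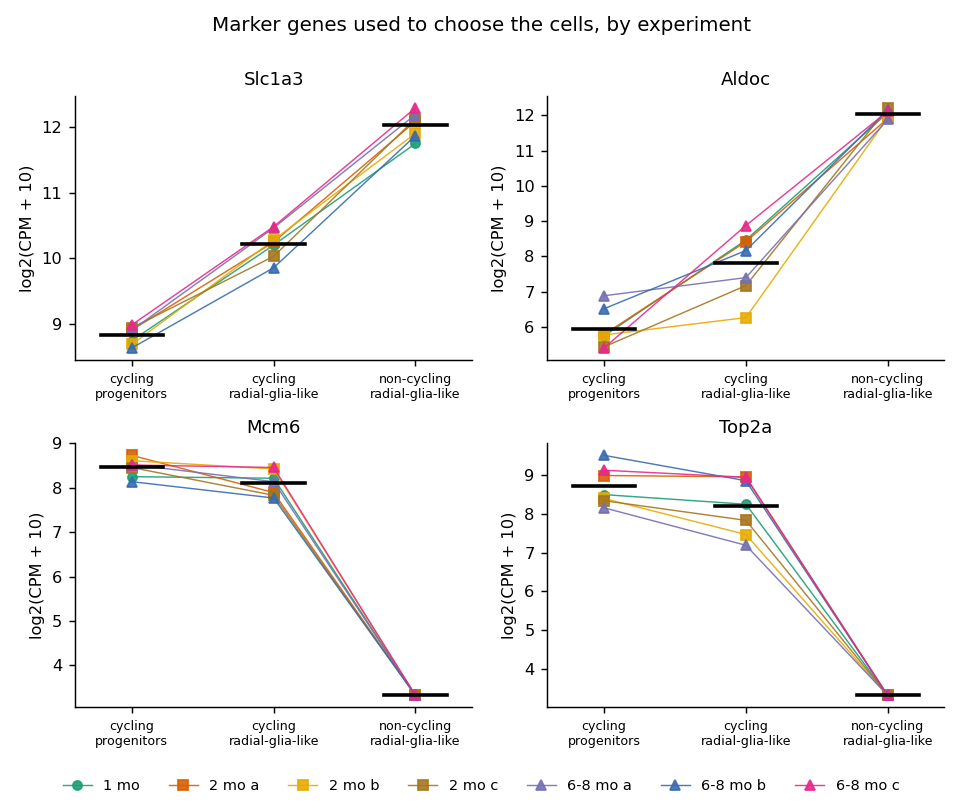
Levels of Slc1a3, Aldoc, Mcm6 and Top2a, which chose the cells, on a log2(CPM + 10) scale (y axis) in the 3 groups of cells (x axis). Each point is 1 of 7 experiments, lines join the groups of one experiment and black bars are means. The glial genes step up from cycling progenitors to members to non-cycling cells, and the cell cycle genes are at 0 only in the non-cycling group, as the rule sets.

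The limits of the rule did not fall in gaps. The 28 members with exactly 4 cell cycle genes had 154 CPM of Mcm6 and 28.1 of Top2a, and the 57 cells with 3 such genes that met every other limit had 71.8 and 67.3. The 77 members with exactly 3 glial genes had 798 CPM of Slc1a3 and 813 of Hopx, and the 71 cells with 2 glial genes had 487 and 299. The 75 members with 1 progenitor gene had 41.4 CPM of Eomes, against 133 in the 82 cells with 2. Of the 966 cycling progenitors, 249 also had at least 3 glial genes. A further 129 cycling cells had fewer than 3 glial and fewer than 2 progenitor genes and belonged to neither group. The stem cell and astrocyte limits that chose the non-cycling cells were met by 156 of the 195 members.

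A few members also carried RNA of other lineages. Of the 10 oligodendrocyte precursor markers, all had a UMI in some member, and Olig1 was the most abundant. Their summed level in members was 466 CPM at 1 month, 69.2, 0 and 100.4 CPM at 2 months, and 67.9, 709 and 385 CPM at 6–8 months. In progenitors it ranged from 14.2 to 168 CPM. At least 3 of these markers were present in 16 members and at least 7 in 9 of them, in the 1-month experiment (6 cells), the third 2-month experiment (1 cell) and the second and the third 6–8-month experiments (4 and 5 cells). The total of called genes in each comparison below was also counted without cells of this kind in any group. The counts per list were not. In the first 2-month experiment, 1 member held 124 of the 133 UMIs of the 10 microglia markers and had all 10 of them. Oligodendrocyte markers, led by Cnp, reached 1834 CPM in members and 1542 CPM in progenitors of the second 2-month experiment, against 66.7 CPM in members at 1 month. Of the 10 endothelial and mural markers, 4 were at 0 in members (Cldn5, Flt1, Cdh5, Kcnj8), and of the 10 granule neuron markers Grin2a and Slc17a7 were at 0. The part of free RNA and of doublets in these levels was not tested.

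Members made up a minority of the cycling neural cells in each experiment. Among members and cycling progenitors together, they were 18.4% at 1 month (69 of 374 cells, exact 95% interval 14.6 to 22.8%). At 2 months they were 12.5%, 8.33% and 13.8%. At 6–8 months they were 8.33% (5 of 60), 37.4% (34 of 91, 27.4 to 48.1%) and 17.8% (36 of 202). The second 6–8-month experiment stood above the others. With every cell thinned to 2000 UMIs before the rule was applied, 48 members remained and the shares lay between 9.30 and 16.5%, with 2 of 16 cells in that experiment. The intervals cover counting error only, and sorting, depth and chemistry also set these shares, so that no order of ages was read from them.

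Within the members, the levels of replication and mitosis RNA varied widely from cell to cell. Outside the rule, a list of 58 replication genes (such as Rrm2, Tk1 and Uhrf1) summed to a median of 5484 CPM per member (quartiles 3279.7 and 8646), and a list of 66 mitosis genes (such as Cdc20, Ube2c and Pbk) to a median of 1846 CPM (quartiles 659.9 and 13541). Over the 195 cells, which differ in depth and library, the 2 levels had a Spearman rho of 0.183. The cells were also split by how many of Top2a, Cdk1 and Ccnb1 were detected, genes of the rule that belong to mitosis, so that the rise of the mitosis list over these classes follows from the split. In the 71 members with no UMI of Top2a, Cdk1 or Ccnb1, the replication list stood at 4438 CPM and the mitosis list at 747 CPM. In the 34 members with 1 of these genes, the values were 5159.7 and 3398 CPM. In the 36 members with 2, the values were 8462 and 5978 CPM. In the 54 members with all 3, they were 6415 and 18863 CPM. The replication list had its highest value in the class with 2 genes. Of the 54 members with all 3, 36 also had at least 4 of the 7 replication genes of the rule. Apoe, an apolipoprotein of astroglia, stood at 7133, 4849, 4726 and 3592 CPM in these classes, from the first to the last. Hopx, a marker of quiescent stem cells, stood at 1839, 1244, 1560 and 1140.1 CPM, without a steady fall. The classes pool experiments of both chemistries. The median number of UMIs rose with the classes from 7756 to 13755, and its part in these values was not tested. In every experiment the lowest member had at most 530.4 CPM of the mitosis list and the highest at least 14858 CPM.

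**Figure D2:**
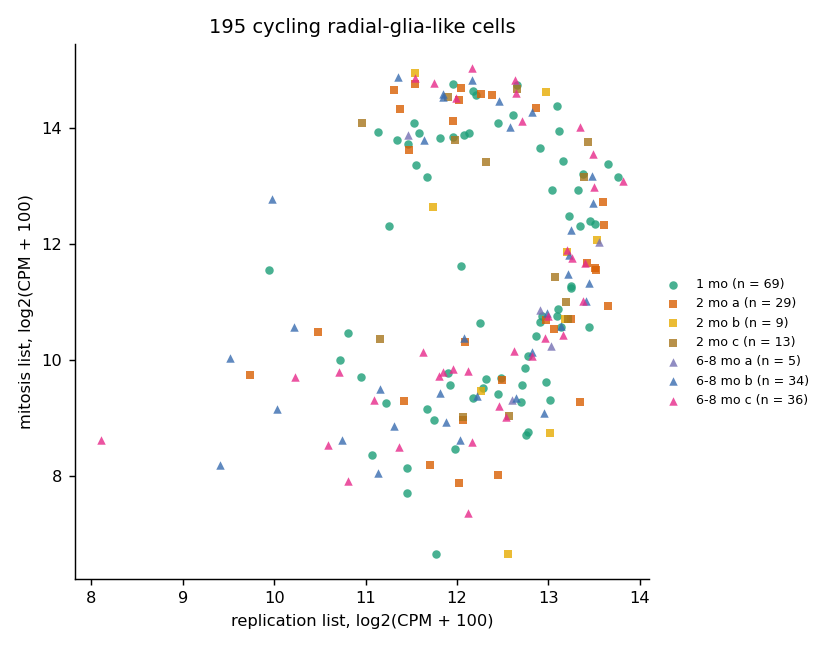
Summed level of the replication list (x axis) against that of the mitosis list (y axis) in each of the 195 members, both as log2(CPM + 100), with colour and symbol giving the experiment. Both lists are widely spread, cells with the lowest mitosis values range over the replication axis, and each experiment has cells at both ends of the mitosis axis.

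The promoters of the replication and mitosis genes were searched for letters of 2 known types of cell cycle motif. Shown are the 300 bases from 250 before to 50 after the RefSeq start (GRCm38.p6, minus strand in each case, read 5′ to 3′) of Mcm6 (chr1:128359656-128359955), Top2a (chr11:99024140-99024439) and Cdk1 (chr10:69352863-69353162), the kinase of mitotic entry. Capitals mark the letters TTTGGCGC, TTTCGCGC, TTTGGCGG or TTTCCCGC, sites of the E2F type, and TTTGAA or TTCGAA, sites of the CHR (cell cycle genes homology region) type, searched on both strands.
Mcm6: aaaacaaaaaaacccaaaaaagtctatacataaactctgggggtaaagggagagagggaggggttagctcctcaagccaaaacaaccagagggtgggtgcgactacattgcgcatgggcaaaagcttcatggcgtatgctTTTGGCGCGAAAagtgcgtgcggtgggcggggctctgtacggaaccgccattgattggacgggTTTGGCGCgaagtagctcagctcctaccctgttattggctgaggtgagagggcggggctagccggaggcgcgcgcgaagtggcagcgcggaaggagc
Top2a: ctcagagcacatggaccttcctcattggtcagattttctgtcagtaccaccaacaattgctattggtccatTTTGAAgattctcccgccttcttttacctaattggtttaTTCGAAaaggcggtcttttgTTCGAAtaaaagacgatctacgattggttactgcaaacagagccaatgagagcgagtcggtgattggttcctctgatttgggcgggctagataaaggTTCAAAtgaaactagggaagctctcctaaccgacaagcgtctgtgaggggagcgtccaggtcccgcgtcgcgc
Cdk1: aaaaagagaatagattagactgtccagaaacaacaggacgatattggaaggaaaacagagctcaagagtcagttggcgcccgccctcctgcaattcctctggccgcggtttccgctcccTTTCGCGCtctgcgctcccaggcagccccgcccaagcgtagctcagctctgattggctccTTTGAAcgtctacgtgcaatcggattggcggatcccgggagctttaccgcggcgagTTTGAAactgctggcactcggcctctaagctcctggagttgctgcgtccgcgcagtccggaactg
The Mcm6 window held 3 E2F-type matches, 2 of them overlapping on opposite strands, and 0 CHR-type matches. The Top2a window held 0 E2F-type and 4 CHR-type matches, and the Cdk1 window 1 and 2. Of 65 replication genes (the list and the 7 replication genes of the rule), 48 had a window and 23 of these (47.9%) held an E2F-type match, against 6 of 58 mitosis genes (10.3%) and 2.70% of all 27025 genes of the table. A CHR-type match stood in 44 of 58 mitosis genes (75.9%), in 20.8% of the replication genes and in 21.7% of all genes. Among stem cell and radial glia genes, 2 of 26 held the first type and 4 the second. A match describes the letters of the window, not a bound factor.

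Members and cycling progenitors did not differ detectably in the balance of mitosis over replication. The log2 ratio of summed mitosis-list to replication-list UMIs was 0.40 ± 0.43 in members and 0.12 ± 0.56 in progenitors (SD, n = 7 experiments). The difference was 0.28 ± 0.45, higher in members in 4 of 7 experiments (exact two-sided permutation of signs, p = 0.19, where 0.016 is the lowest that this number of experiments can reach). In the 3 Version 2 experiments the difference was 0.71, and in the 4 Version 3 experiments it was -0.04. It was -0.62 over 5 experiments after every cell was thinned to 2000 UMIs. Its sign thus changed between these settings.

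Against cycling progenitors, members held more RNA of astroglial and stem cell genes and less of neuronal genes. The cell cycle genes outside the rule that passed the test were mostly lower. Apoe stood at 4322 ± 1089.7 CPM in members and 851 ± 247 CPM in progenitors (mean ± SD, n = 7), a log2 fold change of 2.33 ± 0.10 (SE). Hopx stood at 981 ± 807 CPM against 183 ± 156 CPM (2.39 ± 0.10), and Neurod1, a factor of neuronal differentiation, at 2.93 ± 6.25 CPM against 241 ± 108 CPM (-7.07 ± 0.28). Genes were tested with edgeR's quasi-likelihood test on UMIs summed per experiment and group, with the experiment as a block. Genes had to be detected in at least 20% of members or of progenitors. Of 6582 such genes outside the rule, 33.2% passed a Benjamini-Hochberg adjusted p of 0.05, 15.5% higher and 17.7% lower in members. The cells had been separated on 27 genes, so that genes that follow these from cell to cell, the other astroglial, neuronal and progenitor genes above all, were not independent of the choice. Their counts and folds are given as a description.

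Of 32 stem cell and radial glia genes, 26 were measured, and 22 were higher and 1 lower in members (median log2 fold change 1.46, against -0.05 over all genes tested). The largest folds of the list were those of 1500015O10Rik (3.23 ± 0.27), Clu (clusterin, 2.93 ± 0.19), Ttyh1 (2.92 ± 0.17) and Mt3 (a metallothionein, 2.49 ± 0.10). Lhx2, a transcription factor of forebrain progenitors, was the one that fell (-0.45 ± 0.09). All 11 measured of 22 astrocyte genes were higher, among them Mlc1 (3.52 ± 0.17), Cldn10 (2.53 ± 0.19) and Itih3 (2.56 ± 0.28). Others of the 10 largest rises shared by every experiment were Cspg5 (3.58 ± 0.15), Lrp4 (3.20 ± 0.30), the mitochondrial glutamate carrier Slc25a18 (2.99 ± 0.17), S100a6 (2.95 ± 0.19), Sdc4 (2.78 ± 0.22), Ddah1 (2.73 ± 0.13) and Jam2 (2.67 ± 0.24). Cspg5, a proteoglycan, ranged over the experiments from 50.2 to 606 CPM in members and from 17.3 to 50.9 CPM in progenitors, so that the ranges just overlapped. Hopx was far lower with Version 2 chemistry in both groups. In members it stood at 33.5 to 262 CPM in the Version 2 experiments and at 2047, 1720.1, 1302 and 1300.2 CPM in the Version 3 experiments, and chemistry and age cannot be told apart there.

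Neuronal genes stood low in members. Of 34 neuronal differentiation genes, 22 were measured, 19 were lower and 0 higher (median -1.98). Tubb3, a neuronal tubulin, stood at 9.20 ± 9.68 CPM in members and 341 ± 94.0 CPM in progenitors (-5.12 ± 0.21), and Dcx, a microtubule protein of neuroblasts, at 6.73 ± 5.89 CPM and 118 ± 25.1 CPM (-4.20 ± 0.25). Sstr2 had 1 UMI in all members and 814 in progenitors, and Tbr1 had 1 and 374. Other genes lower in every experiment were Pcp4 (-5.40 ± 0.18), Chga (-5.12 ± 0.37), Srrm4, a neuronal splicing factor (-5.08 ± 0.32), Cd24a (-4.68 ± 0.34), Chgb (-3.80 ± 0.35) and Basp1 (-3.22 ± 0.15). Sox11 (-2.31 ± 0.10) and Sox4 (-1.49 ± 0.09), transcription factors of newborn neurons, were lower by less. Insm1, a zinc finger factor of intermediate progenitors, was abundant in both groups, with 409 ± 325 CPM in members and 519 ± 266 CPM in progenitors (-0.83 ± 0.11, adjusted p = 2.9e-09, edgeR), and was higher in members in 2 of 7 experiments.

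Huwe1 (ENSMUSG00000025261, chrX:151800807-151935417), a ubiquitin ligase, stood at 69.0 ± 17.1 CPM in members, 87.8 ± 16.7 CPM in progenitors and 76.5 ± 26.7 CPM in non-cycling cells. It was lower in members than in progenitors, with a difference of -0.49 ± 0.15 on the log2 scale (adjusted p = 0.0093, edgeR, lower in 6 of 7), and against non-cycling cells the value was -0.26 ± 0.18 (adjusted p = 0.22). The call against progenitors was lost without the second 6–8-month experiment (-0.34) or the third (-0.44), with DESeq2 and without the block. These are RNA levels, and protein was not measured here.

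Notch pathway genes did not move together. Of 28 genes of the pathway, 15 were measured against progenitors, with 7 higher and 3 lower (median 0.36), beside 15.5% higher and 17.7% lower over all genes tested. Of these 15, 5 had reached 20% of cells in members alone (4 of them called higher) and 2 in progenitors alone. The filter thus partly sets the direction of this count. With no filter on low counts, 7 of 28 were higher and 6 lower (median 0.17). Among receptors, Notch2 (ENSMUSG00000027878, chr3:98013527-98150361) ranged from 69.2 to 267 CPM (median 171) in members and from 12.8 to 49.4 CPM (median 23.8) in progenitors, without overlap (2.57 ± 0.16), and Notch1 rose by less (0.87 ± 0.14). Among ligands, Dll1 (0.70 ± 0.16) and Jag1 (2.29 ± 0.32) were higher and Dll3 lower (-1.76 ± 0.23). Lfng, a glycosyltransferase that modifies Notch receptors, was higher in every experiment, at 78.3 ± 24.8 CPM against 8.92 ± 3.67 CPM (2.95 ± 0.24). Of the target genes, Hes1 (ENSMUSG00000022528, chr16:30064384-30067796) ranged from 0 to 181 CPM (median 85.6) in members and from 0 to 8.82 CPM (median 4.07) in progenitors (4.73 ± 0.26). It was at 0 in the members of the third 2-month and the first 6–8-month experiments, which held 13 and 5 cells, and higher than in progenitors in the other 5. Hes5, the other main target, stood at 399 ± 291 CPM in members and 565 ± 519 CPM in progenitors and did not pass the test (-0.23 ± 0.13, adjusted p = 0.17, edgeR). Both groups varied widely in Hes5, with the 2 highest values of each in the second and the third 6–8-month experiments (901 and 695 CPM in members). Rbpj, the DNA-binding partner of the Notch intracellular domain, was lower in members (-0.80 ± 0.16).

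Receptors and cyclins also differed between the 2 cycling groups. Of 38 growth factor, Wnt and hedgehog receptors and their partners, 15 were measured, 10 were higher and 1 lower (median 0.79), where 15.5% higher and 17.7% lower were the shares of all genes. Of these 15, 4 had reached 20% of cells in members alone, and all 4 were called higher. The filter thus partly sets the direction of this count. With no filter on low counts, 14 of 37 were higher and 1 lower. Egfr stood at 73.4 ± 28.8 CPM in members and 22.6 ± 13.1 CPM in progenitors (1.56 ± 0.21), Fgfr3 at 34.8 ± 20.5 CPM and 10.1 ± 3.11 CPM (2.00 ± 0.28), and Gas1, a co-receptor of hedgehog ligands, at 244 ± 114 CPM and 50.7 ± 17.1 CPM (2.44 ± 0.14). The lower one was Ctnnb1, the transducer beta-catenin (-0.48 ± 0.10). Of the D-type cyclins, which drive entry into S phase, Ccnd1 (ENSMUSG00000070348, chr7:144929931-144939925) ranged from 33.5 to 202 CPM (median 139.5) in members and from 12.8 to 54.9 CPM (median 36.4) in progenitors (2.07 ± 0.16, adjusted p = 2.0e-18, edgeR), higher in 6 of 7. Ccnd2 (ENSMUSG00000000184, chr6:127125162-127152193) went the other way by less, at 1632 ± 527 CPM against 2034 ± 531 CPM (-0.44 ± 0.08), and so did their partner Cdk6 (-0.63 ± 0.10) and the inhibitor Cdkn1b (-0.54 ± 0.13). Mycn was higher (0.88 ± 0.12) and Mycl lower (-1.94 ± 0.28). In all, 6 of 22 measured cyclins, Cdk inhibitors and related regulators were higher and 8 lower, to be read against the same shares.

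The cell cycle genes outside the rule that passed the test against progenitors were mostly lower. Of 52 measured replication genes 2 were higher and 13 lower (median -0.16), and of 62 mitosis genes 1 was higher and 14 lower (median -0.18), beside 15.5% higher and 17.7% lower over all genes. The remaining 37 and 47 genes did not pass. Since 33.2% of all genes were called, most genes of any kind did not pass, and this is not read as a likeness of the groups. Rrm2, a subunit of ribonucleotide reductase, was lower in every experiment (-0.75 ± 0.10). Mki67, which encodes the proliferation antigen Ki67, differed by 0.12 ± 0.13 (adjusted p = 0.53, edgeR), at 142 ± 79.8 CPM and 122 ± 91.2 CPM. Chromatin and high mobility group genes were lower in 19 of 30 and higher in 1, led by the histone gene H3f3b (-1.22 ± 0.08), H1f0 (-1.04 ± 0.13) and Hdac2 (-0.91 ± 0.12). Of 33 genes of mRNA processing and ribosome biogenesis 12 were lower, such as Hnrnpab (-0.73 ± 0.09), and 3 higher.

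In fatty acid metabolism and glycolysis more genes were higher than lower in members, while over all genes tested 15.5% higher and 17.7% lower were called. Of 37 genes of fatty acid oxidation and synthesis, 27 were measured, 16 were higher and 1 lower (median 0.72). Of these 27, 6 had reached 20% of cells in members alone (5 of them called higher) and 1 in progenitors alone. The filter thus partly sets the direction of this count. With no filter on low counts, 16 of 37 were higher and 1 lower (median 0.60). Thrsp, a regulator of lipogenesis, stood at 2239 ± 527 CPM in members and 549 ± 154 CPM in progenitors (1.90 ± 0.09), higher in 7 of 7. The lipase gene Mgll (1.97 ± 0.13), the acyl-CoA synthetase gene Acsbg1 (1.90 ± 0.20) and the dehydrogenase gene Acadl (1.59 ± 0.16) were also higher, while Acly, which makes cytosolic acetyl-CoA, was lower (-0.68 ± 0.21). Of 12 measured glycolysis genes 8 were higher and 0 lower, the largest being Aldoa (0.85 ± 0.14), with Ldha (0.66 ± 0.11) and Eno1 (0.84 ± 0.13) among them. Of the cholesterol genes, 4 of 21 were higher (Apoe, Clu, Lrp1, Idi1) and 3 lower (such as Hmgcs1 and Fdft1), a share near the 33.2% of all genes. Of 9 BMP and Id genes, Id4 (1.52 ± 0.13), Nbl1 (1.38 ± 0.12) and Bmpr1a (0.69 ± 0.21) were higher and Id2 (-1.06 ± 0.14) and Smad4 (-0.50 ± 0.16) lower. Immediate early genes, which also answer to tissue dissociation, went both ways and were higher in 4 (Fosb, Dusp1, Jun, Fos) and lower in 3 (Ier2, Egr1, Nfkbia) of 11.

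Without the 16 members rich in oligodendrocyte precursor markers and the other such cells, 2092 genes were called against progenitors instead of 2188. With the experiment left out of the model 1059 were called, with the 3 shallow Version 2 experiments alone 343, and under stricter limits against doublets, which left 4 experiments, 1284.

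Against non-cycling radial-glia-like cells, members held less astroglial RNA and more of replication, mitosis, chromatin and RNA processing. Clu stood at 205 ± 179 CPM in members and 2817 ± 589 CPM in non-cycling cells (-3.90 ± 0.17), Id4, an inhibitor of basic helix-loop-helix factors that acts in quiescent stem cells, at 203 ± 67.7 CPM and 1697 ± 813 CPM (-3.10 ± 0.15), and Apoe at 4322 ± 1089.7 CPM and 22786 ± 4419 CPM (-2.64 ± 0.17). Stmn1, a regulator of microtubules, stood at 3249.9 ± 412 CPM and 476 ± 121 CPM (2.57 ± 0.14). Of 6225 genes outside the rules of both groups, 54.9% were called by edgeR, 28.2% higher and 26.7% lower in members. Scaling by total UMIs in place of TMM gave 2222 higher and 1294 lower instead of 1757 and 1662, and moved the median of all genes from 0.03 to 0.19. Without cells with 3 or more oligodendrocyte precursor markers, 1502 were higher and 1892 lower, with a median of -0.08. The balance of the 2 directions thus depends on these settings. The members of this comparison are those of the comparison with progenitors, so the 2 sets of folds are not independent, and they are given side by side.

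Every measured replication gene (51 of 51, median 3.55) and mitosis gene (62 of 62, median 6.60, or 6.56 with the 30 genes of 3 or fewer UMIs at their bound) was higher in members, a direction that the choice of the cells fixes. Ube2c, which works with the anaphase-promoting complex, stood at 458 ± 178 CPM against 0.589 ± 0.736 CPM. Tk1, the thymidine kinase of S phase, had 166 UMIs in members and 0 in non-cycling cells. Pbk, a mitotic kinase, had 710 and 3 UMIs, a ratio of 488 (95% counting interval 166 to 2373), and Cdc20 had 545 and 3. Cdca2 (143 and 0 UMIs), Esco2 (238 and 1), Pimreg (331 and 1), Spc25 (400 and 3) and Cdca3 (436 and 3) were among the 10 largest rises as well, with Prc1 (640 and 5). Mki67 had 413 UMIs in members and 2 in non-cycling cells. Hmgb2, a high mobility group protein of dividing cells, rose by 4.34 ± 0.15, the histone genes H2afz and H2afx by 3.44 ± 0.14 and 3.47 ± 0.14, and 27 of 30 chromatin genes were higher, as were 31 of 33 genes of mRNA processing and ribosome biogenesis (Hnrnpa1, 2.42 ± 0.13; Nop58, 1.86 ± 0.16). Of 20 cyclins and related genes 15 were higher and 0 lower, beside 28.2% higher and 26.7% lower over all genes. Of these 20, 16 had reached 20% of cells in the deeper members alone (13 of them called higher). The same held for 14 of the 30 chromatin genes (13 called higher), so that the filter partly sets the direction of both counts. Without the stem cell and astrocyte limits on non-cycling cells, 15 cyclins and related genes were higher and 2 lower. Ccnd2 (2.56 ± 0.14), Ccnd1 (2.46 ± 0.19) and Cdk6 (2.41 ± 0.16) rose, and so did the inhibitor Cdkn1a (4.62 ± 0.40), while Cdkn1b was at -0.02 ± 0.15 (adjusted p = 0.91, edgeR).

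Astroglial and stem cell genes were lower in members. Of 23 measured stem cell and radial glia genes 16 were lower and 2 higher (median -1.28), and all 14 measured astrocyte genes were lower (median -2.56). Non-cycling cells had been chosen for stem cell genes, a limit that members did not have to meet, and for the same number of glial genes at a lower depth, so that these counts and folds follow in part from the choice of the cells and are given as a description. Without the stem cell and astrocyte limits on non-cycling cells, 14 of 22 stem cell genes were lower and 4 higher, and all 15 astrocyte genes were lower. The largest differences shared by every experiment were those of Clu, above, and of Agt (angiotensinogen, -5.07 ± 0.32), 2900052N01Rik (-4.69 ± 0.32), the chemokine gene Cxcl14 (-4.21 ± 0.20), the ectonucleotidase gene Entpd2 (-4.11 ± 0.17), Paqr6 (-4.02 ± 0.27), the urea transporter gene Slc14a1 (-4.01 ± 0.33), Phkg1 (-3.97 ± 0.28), Lcat (-3.96 ± 0.23) and Eva1a (-3.84 ± 0.23). Entpd2 ranged over the experiments from 0 to 49.3 CPM in members and from 254 to 609.9 CPM in non-cycling cells. The exceptions in the stem cell list were Vim (0.37 ± 0.13) and Sox1 (0.38 ± 0.13), an intermediate filament of radial glia and a factor of neural progenitors. Of 26 fatty acid genes 18 were lower and 1 higher, and of 20 cholesterol genes 13 lower and 1 higher, beside 26.7% lower and 28.2% higher over all genes. Glycolysis genes went both ways, with Aldoa (-2.39 ± 0.14), Ldhb (-1.41 ± 0.14) and Eno1 (-1.16 ± 0.13) lower and Ldha (0.81 ± 0.14) and Gapdh (0.55 ± 0.13) higher. Thrsp did not pass the test, at 2239 ± 527 CPM against 1656 ± 236 CPM (0.18 ± 0.13, adjusted p = 0.24, edgeR), although its CPM was higher in members in 7 of 7 experiments.

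Several early neurogenic genes were higher in members than in non-cycling cells. Of 14 measured neuronal differentiation genes 10 were higher and 2 lower, but 8 of the 14 had reached 20% of cells in the deeper members alone (7 of them called higher), so that the filter partly sets the direction of this count. With no filter on low counts, 11 of 33 were higher and 6 lower, with a median of 0.10. Insm1 stood at 409 ± 325 CPM against 7.62 ± 5.33 CPM (5.33 ± 0.24), and Sox11 (2.33 ± 0.15), Sox4 (1.17 ± 0.13) and the RNA-binding protein gene Elavl2 (2.10 ± 0.26) rose, whereas Neurod1 was at 2.93 ± 6.25 CPM and 16.2 ± 20.7 CPM. Tubb2b (-1.12 ± 0.14) and Nrn1 (-1.06 ± 0.19) were the lower ones. In the Notch pathway 3 of 13 measured genes were higher and 6 lower, beside 28.2% and 26.7% over all genes. The ligand Dll1 ranged from 53.1 to 134 CPM (median 94.0) in members and from 0 to 22.6 CPM (median 19.0) in non-cycling cells (2.25 ± 0.24), and Hes6 (1.47 ± 0.12) and Notch1 (0.48 ± 0.15) rose with it. Notch2 (-1.81 ± 0.14), Hes1 (-1.53 ± 0.15), Hes5 (-0.75 ± 0.14), Lfng (-1.31 ± 0.16) and Jag1 (-1.21 ± 0.23) were lower. Of the receptors 11 of 17 were lower, among them Fgfr3 (-1.77 ± 0.20), and 2 higher, Egfr (0.71 ± 0.22) and Ctnnb1 (0.98 ± 0.14).

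**Figure D3:**
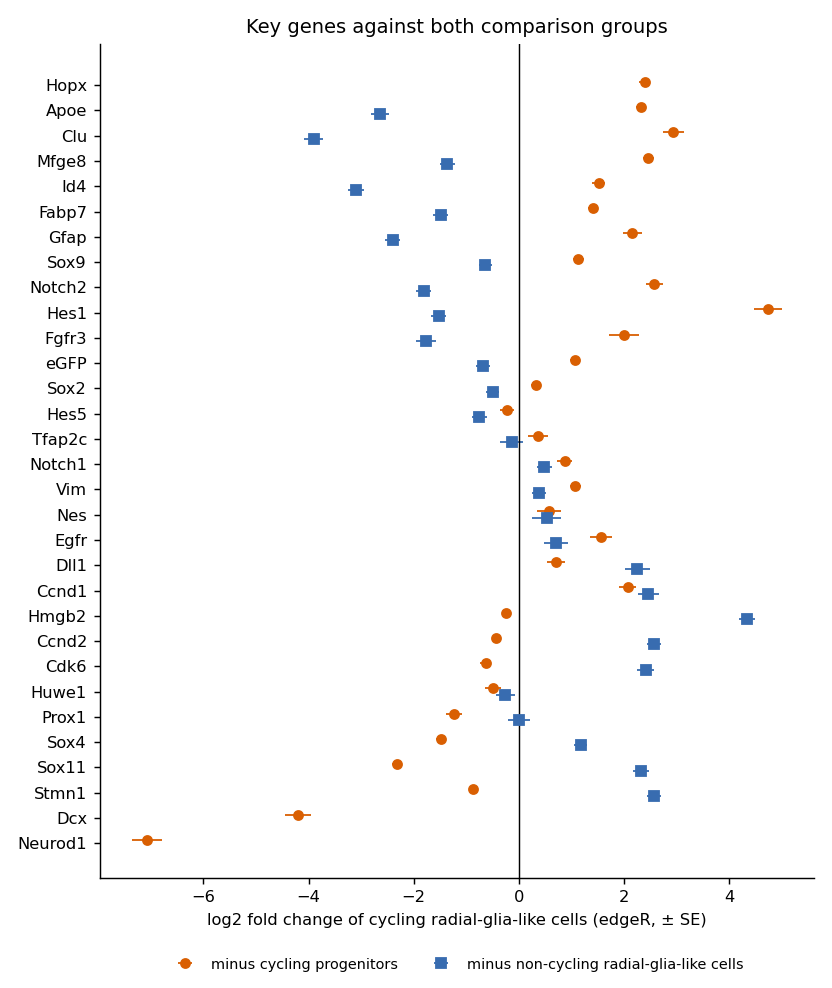
Log2 fold changes of members (x axis, points with standard errors from edgeR) for the key genes (rows), against cycling progenitors (circles) and against non-cycling radial-glia-like cells (squares). Genes at the top are above progenitors and below non-cycling cells, Notch1, Vim, Egfr, Dll1 and Ccnd1 are above both, and Sox4, Sox11 and Stmn1 near the bottom are below progenitors and above non-cycling cells. Hopx has no square because it helped to choose the non-cycling cells, and Dcx and Neurod1 have none because too few cells held them to be tested there.

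Side by side, many key genes fell into 3 arrangements, and others, such as Hes5, Mki67 and Cdkn1b, into none of them. The choice of the cells sets these arrangements in part, above all for astroglial, neuronal and cell cycle genes. They are therefore given as a description. Apoe, Clu, Mfge8, Id4, Fabp7, Gfap, Sox9, Notch2, Hes1, Fgfr3 and Sox2 passed the test above progenitors and below non-cycling cells. Sox4, Sox11, Stmn1, Ccnd2, Cdk6 and Hmgb2 passed it below progenitors and above non-cycling cells, although Hmgb2 was not lower than in progenitors with the Version 2 experiments alone. Ccnd1, Dll1, Egfr, Notch1 and Vim passed it above both groups. The last 3 were the weakest against non-cycling cells. Without the block none of them passed there, nor did Notch1 without the 1-month experiment (0.21) or Vim without the first 2-month (0.24) or the second 6–8-month experiment (0.31). Nes was above progenitors (0.58 ± 0.23, adjusted p = 0.04, edgeR) and did not pass against non-cycling cells (0.53 ± 0.27, adjusted p = 0.089). Tfap2c and Id1 passed in neither comparison. Prox1, the factor of granule neuron identity, was below progenitors (-1.23 ± 0.15) and did not pass against non-cycling cells (adjusted p = 1, edgeR).

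**Figure D4:**
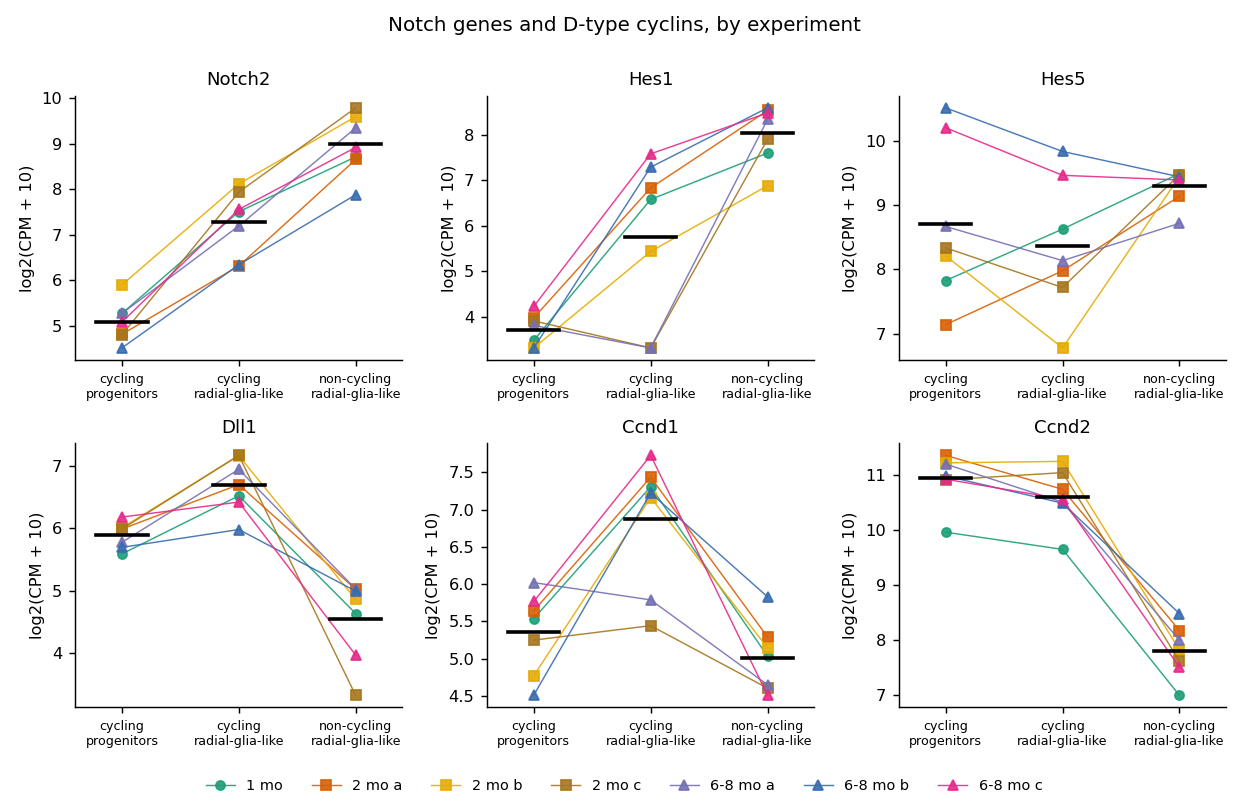
Levels of Notch2, Hes1, Hes5, Dll1, Ccnd1 and Ccnd2 on a log2(CPM + 10) scale (y axis) in the 3 groups of cells (x axis), with 1 point per experiment, lines that join the groups of an experiment and black bars for means. Dll1 and Ccnd1 peak in the members in most experiments, Notch2 and Hes1 climb from progenitors to non-cycling cells, and Hes5 has no common order.

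The Cre reporter was read in the members as a record of past cell cycles. Before recombination the locus gives reads that map to a tdTomatoLoxP element, and after it to WPRE and bGHpolyA elements downstream of tdTomato. The tdTomato coding element itself had 0 UMIs. The recombined share is the percentage of WPRE and bGHpolyA among all UMIs of these elements, none of which is in the rule. In members it was 3.50% at 1 month, 10.4%, 40% and 40.9% at 2 months, and 0.962%, 6.15% and 10.7% at 6–8 months. The second and the third 2-month experiments were far above the rest, from 20 and 44 reporter UMIs in 9 and 13 cells. In cycling progenitors the share ranged from 10.9 to 53.0%, and in non-cycling cells from 1.99 to 7.62%. Members were below progenitors in 7 of 7 experiments, with a difference of -11.5 percentage points ± 7.80 (SD; exact two-sided permutation of signs, p = 0.016, the smallest that 7 experiments can give, and 0.031 adjusted over the 2 comparisons). They were above non-cycling cells in 6 of 7, by 12.4 points ± 14.8 (p = 0.047, adjusted 0.047, exact).

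The first of these differences kept its sign under WPRE alone (-10.9 points) and without the cells rich in oligodendrocyte precursor markers (-11.1 points). For the second, the exact p rose above 0.05 without the 1-month experiment (14.3 points, p = 0.062) and without the first, the second or the third 2-month or the second or the third 6–8-month experiment (13.1, 9.11, 8.74, 14.0 and 13.1 points, p = 0.094 each). By the rule of the study for single recombined cells (fewer than 4 intact and more than 1 recombined UMI, both doubled for Version 3), 7 of 195 members were recombined, 3 and 4 of them in the second and the third 2-month experiments and none elsewhere, against 231 of 966 progenitors and 4 of 1092 non-cycling cells. The 2 libraries of the first 2-month experiment followed their sort, and the groups divided differently over them, with 9 of 29 members, 62 of 203 progenitors and 5 of 278 non-cycling cells in the library with tdT+ cells. The share in members was 22.6% (exact 95% interval 16.1 to 30.3%) in the library with tdT+ cells and 2.63% (0.972 to 5.64%) in the GFP+tdT- library, intervals that cover counting error only. In the GFP+tdT- library progenitors had 18 recombined and 1183 intact UMIs (0.891 to 2.36%) and non-cycling cells stood at 2.05% (1.44 to 2.83%), so that the intervals of the 3 groups overlapped there. With this library alone for that experiment, an alternative chosen after the data were seen, members were below progenitors in 6 of 7 experiments, this one being the exception (-10.5 points, exact p = 0.031) and above non-cycling cells in 6 of 7 (11.3 points, exact p = 0.062). The mixture of tdTomato+ and tdTomato– cells loaded in each experiment also sets these shares, and the part of free reporter RNA was not tested.

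The Nestin-GFP transgene was higher in members than in progenitors and lower than in non-cycling cells in all 7 experiments. eGFP ranged from 540.2 to 1523 CPM (median 910.0) in members, from 229 to 676 CPM (median 398) in progenitors and from 703 to 2283 CPM (median 1047) in non-cycling cells, with log2 fold changes of 1.06 ± 0.09 and -0.69 ± 0.13 (adjusted p = 6.4e-18 and 1.8e-06, edgeR). The ranges over experiments overlapped, and the order within each experiment was the same.

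**Figure D5:**
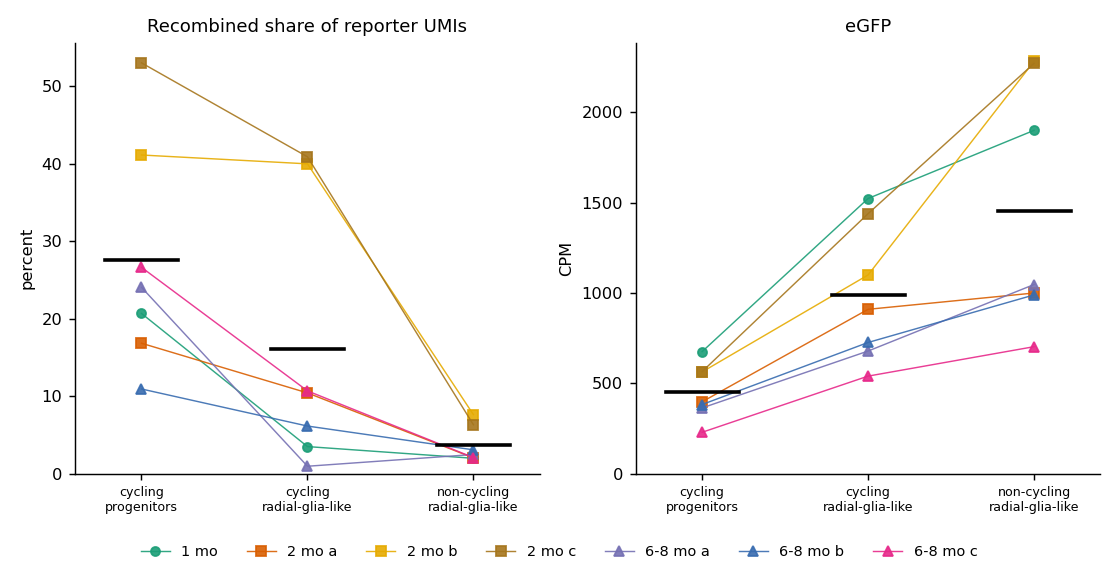
Recombined share of reporter UMIs in percent (left) and eGFP in CPM (right) in the 3 groups of cells (x axis). Each point is 1 experiment, lines join the groups of one experiment and black bars are means. The recombined share falls from progenitors to members in all 7 experiments and on to non-cycling cells in 6, and eGFP rises in the same order in all 7.

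Members at 6–8 months were compared with those at 1 month, an age with a single experiment, so that age and that experiment cannot be told apart. All ages were in 1 edgeR fit, and the 1-month experiment was assumed to vary like the others. Of 7407 genes tested, 0.243% were called (18 genes), 0.135% higher (10) and 0.108% lower (8) at 6–8 months. Immediate early genes made up 4 of the 10. Klf4 stood at 5.04 CPM at 1 month and 90.5, 57.6 and 59.8 CPM at 6–8 months (3.46 ± 0.69), Junb at 75.5 CPM at 1 month and 362, 146 and 341 CPM at 6–8 months (1.73 ± 0.38), Klf6 at 26.4 CPM at 1 month and 45.3, 117 and 130.2 CPM at 6–8 months (2.08 ± 0.44) and Fosb at 26.4 CPM at 1 month and 45.3, 77.5 and 137 CPM at 6–8 months (1.90 ± 0.46). Each was lower at 1 month than in all 3 experiments at 6–8 months, and the other 10 measured genes of the list did not pass. In other cells of these libraries, Junb stood at 202 CPM at 1 month and 86.6, 712 and 589 CPM at 6–8 months in non-cycling cells. Fosb stood at 15.7 CPM and 14.2, 26.7 and 36.0 CPM in progenitors. Junb in non-cycling cells and Fosb in both groups were thus higher in 2 of the 3 experiments at 6–8 months too. Values of Klf4 and Klf6 in these groups are not given, and nothing particular to members was tested. The heat shock gene Dnajb1 (1.65 ± 0.41), the selenoprotein gene Selenop (2.18 ± 0.48) and Gm8797 (2.52 ± 0.51) were higher too, as was the bGHpolyA element of the recombined reporter (2.60 ± 0.65, from 6 UMIs at 1 month), while WPRE, the other recombined element, did not pass.

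Lower at 6–8 months were eGFP, at 1523 CPM at 1 month and 679, 726 and 540.2 CPM at 6–8 months (-1.30 ± 0.32, adjusted p = 0.023, edgeR), Fxyd6, at 451 CPM at 1 month and 45.3, 230.3 and 183 CPM at 6–8 months (-1.31 ± 0.32), Ndn (-1.31 ± 0.34), Gm10076 (-1.61 ± 0.35), Fuom (-2.04 ± 0.49) and 1500015O10Rik, a stem cell gene, at 133 CPM at 1 month and 226, 39.9 and 28.2 CPM at 6–8 months (-1.58 ± 0.39), where the groups overlap. eGFP was also lower at 6–8 months in progenitors (364, 383 and 229 against 676 CPM) and in non-cycling cells (1047, 989.7 and 703 against 1901 CPM), values of the same libraries. Huwe1 stood at 83.1 CPM at 1 month and 67.9, 57.6 and 65.1 CPM at 6–8 months (-0.46 ± 0.39, adjusted p = 1, edgeR). None of the measured replication (56), mitosis (64), Notch (18) and astrocyte (11) genes was called. A gene that was not called may still differ at this number of experiments. The 18 calls fell to 3 without the third 6–8-month experiment and to 11 without the second. DESeq2 called 0 (27 genes at an unadjusted p under 0.05), and edgeR on the Version 3 experiments alone 0 (265 genes). Cells rich in oligodendrocyte precursor markers were 9 of 75 members at 6–8 months and 6 of 69 at 1 month, and without such cells 21 genes were called.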

How the data were processed

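Single cells of 7 sorts, in 8 libraries, had been sequenced with 10x 3′ chemistry. Per the labels, the authors trimmed reads with cutadapt 1.18 and made the deposited UMI counts per gene and barcode with Cell Ranger 3.0.2, against a mouse reference extended by reporter elements, pooling the libraries without depth normalization. The deposited matrix held 26036 barcodes, the set to which the study then applied its filters on genes, mitochondrial reads and doublets.

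From these counts, barcodes were filtered and grouped by the detection rules given above. Detection rises with depth, so deeper cells pass a limit on present genes more readily and a limit on absent genes less readily. No doublet caller was run: doublets were limited by the genes of other lineages, with a stricter alternative. Members, lists and tests were chosen with earlier results of these data known. UMIs were summed per experiment and group (at least 5 cells), which keeps cells from being counted as replicates, and tested with edgeR 4.0.16 (TMM scaling, quasi-likelihood) in R 4.3.3, with Benjamini-Hochberg adjustment over all genes tested. The pairing of groups comes from the experiment, since both groups of one experiment came from the same animals and, except in the first 2-month experiment with its 2 separately sorted libraries, from 1 library. P-values measure the spread between experiments, each a pool of animals. Single values were tested by exact sign permutation over experiments in Python 3.11.15 (SciPy 1.17.1). The scripts were tested on simulated data. DESeq2 1.42.0, other scalings, filters and limits, and leaving out each experiment were the alternatives; leaving out cells rich in oligodendrocyte precursor markers, and taking the first 2-month experiment from its GFP+tdT- library alone, were added after the data were seen. Named genes are those of the rule, a list of key genes, the 10 largest called changes in each direction with 1 sign in every experiment and at least 50 CPM in the higher group, and up to 4 called members per list and direction. Of 31058 features, 30934 had an entry in the annotation (GENCODE M21, GRCm38), which gave positions. Results for some genes are not reported here.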

Additional observations from a re-analysis of the deposited data

Results flagged for a closer look

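Of 73 values checked over the 7 experiments, 2 had an end value set far apart from the others, and chance alone gives this in about 1 in 20, so that 2 is no more than chance would give. The share of radial-glia-like cells among cycling neural cells was highest in the second 6–8-month experiment, at 37.4%, with the other 6 between 8.33 and 18.4%. That experiment also had the highest level of oligodendrocyte precursor markers in members (709 CPM). The log2 ratio of mitosis over replication UMIs in members was lowest in the first 6–8-month experiment, at -0.47, from 5 cells. The part of cell number and of other lineages in these values was not tested.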

How the results depend on the processing

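Against cycling progenitors, 2188 genes were called, and 1617 to 2246 without 1 experiment, 1527 with DESeq2, 2831 with no filter on low counts, 1059 with no replicate block, 343 with the Version 2 experiments alone and 1284 under stricter limits against doublets (4 experiments). Against non-cycling cells, 3419 were called, 2976 to 3384 without 1 experiment, 2703 with no replicate block and 1640 with Version 2 alone. The 18 calls by age became 0 with DESeq2, 0 with Version 3 alone, 0 under the stricter limits, 8 with no filter and 3 to 19 without 1 experiment. Fewer experiments entered several of these fits. Without 1 experiment, 2 to 18 of 151 named genes lost their call against progenitors, 0 to 6 of 154 against non-cycling cells and 0 to 13 of 14 by age, and none changed sign. With no replicate block, 54 and 17 lost it in the first 2 comparisons, and Cnp (-0.039) changed sign against progenitors. With scaling by total UMIs, none changed sign.

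Further changes of sign against progenitors were, with Version 2 alone, Hes6 (0.092), Rbl1 (-0.18), Melk (0.35), Hnrnpd (0.091), Hmgb2 (0.042), H2afx (0.0055), Acsl6 (-0.0070), Nfkbia (0.058), Dusp1 (-0.000496) and Smad4 (0.14), and for Cdc20 -0.49 with at least 4 glial genes and -0.095 under the stricter limits. Against non-cycling cells they were Ier2 (-0.41) and C1ql1 (-0.62) with Version 2 alone, C1ql1 (-0.66) with at least 4 glial genes, and Tfap2c (0.56) and C1ql1 (-1.27) without the stem cell and astrocyte limits. The recombined share in members less that in progenitors lay between -13.3 and -9.60 points without 1 experiment and was -11.0 under the stricter limits, where 4 experiments cannot reach 0.05. Less that in non-cycling cells, it lay between 8.74 and 14.8, with 4.91 under those limits. It was 11.3 with the first 2-month experiment from its GFP+tdT- library alone. Taken as the share of recombined cells, the difference was 8.54, but higher in 2 and lower in 2 of 7 experiments (exact two-sided permutation of signs, p = 0.5). The mitosis over replication difference lay between 0.16 and 0.36 without 1 experiment, and was -0.043 with Version 3 alone and -0.62 after thinning. The cause of these changes was not tested. With 5 to 13 members in 3 experiments, 1 UMI weighs heavily on their levels.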

Other observations

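Against non-cycling cells, the Id genes, targets of BMP signalling, were lower in members where they passed the test, with Id3 at -2.29 ± 0.22, Id2 at -1.30 ± 0.15 and Id4 as given above (log2 fold change ± SE, edgeR). Nbl1, an antagonist of BMP ligands, was higher in members than in both other groups (1.38 ± 0.12 against progenitors and 0.98 ± 0.15 against non-cycling cells). Of 9 measured BMP and Id genes, 1 was higher and 3 lower, beside 28.2% higher and 26.7% lower over all genes tested. Immediate early genes were lower in 5 of 11 (Junb, -1.57 ± 0.16; Btg1, -1.06 ± 0.13; Dusp1 and Jund among the others) and higher in 2, Egr1 (1.14 ± 0.14) and Ier2 (0.56 ± 0.15). Both higher genes had reached 20% of cells in members alone. Without the stem cell and astrocyte limits on non-cycling cells the count turned, with 5 of 11 higher and 3 lower. With no filter on low counts, 6 of 24 were higher and 7 lower. Neither list was tested against the shares over all genes. Usp9x, a deubiquitinase listed with Huwe1, was lower in members than in progenitors (-0.58 ± 0.21, adjusted p = 0.022, edgeR) and than in non-cycling cells (-0.93 ± 0.23, adjusted p = 2.0e-04). The inhibitor gene Cdkn2d was lower than in progenitors (-0.87 ± 0.15) and the repressor gene E2f5 higher (1.04 ± 0.19).

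A gene of another lineage was called too. C1ql1, one of the oligodendrocyte precursor markers, was higher in members than in progenitors (2.52 ± 0.25), and without the cells that held 3 or more of these markers it was detected in too few cells to be tested.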
